A study of Mus musculus with 2 samples.

Results

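The Eph receptors and ephrins, the semaphorins with their plexin and neuropilin receptors, the Slits with their Robo receptors, and the netrins with their Unc5 receptors were compared between homozygous Hammer toe and wild-type mouse embryos. Members were taken by gene symbol, from probe sets that GEO's platform annotation assigns to a single gene. This gave 69 genes of the 18193 named on the array, read by 152 probe sets. Robo4 was left out by the rule. Of the 69, 66 are guidance ligands or receptors. The remaining 3 match the symbol pattern only: Unc50 is a trafficking protein of the Golgi, Unc5cl lacks the netrin-binding part of an Unc5 receptor, and Plxna4os1 is a transcript from the strand opposite Plxna4.

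Guidance genes were named for steering growing axons, and the same proteins position cells and set tissue boundaries elsewhere in the embryo. Ephrins are membrane-bound ligands of the Eph receptor tyrosine kinases, and contact between a cell carrying one and a cell carrying the other often drives the cells apart. Semaphorins signal through plexins, in the secreted class usually with a neuropilin as co-receptor. Slits signal through Robo receptors, and netrins through Dcc, neogenin and the Unc5 receptors, which can trigger death of cells that lack ligand. In the limb these cues are known for steering motor axons, nerves and vessels and for grouping of the skeletal mesenchyme.

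The tissue was dissected from hind limbs at stage E13.5, from the interdigital regions that the labels call ID2 and ID3. The tested embryos are labelled Hammer toe (homo), a mutant known for webbing between the digits, and the control embryos B6, wild type. The label of the mutant names no strain, so strain and genotype cannot be told apart. Each genotype was measured on 1 Affymetrix array, and the design text speaks of 3 sets of 5 littermates, 15 embryos per genotype, without saying how they relate to that array. There are thus no replicates, the values carry no error between samples, no test was possible, and the number of arrays limits the precision. In whole tissue, fewer cells of a type and less RNA per cell cannot be told apart.

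Values are MAS5 intensities, which combine the short probes of a probe set into one number and are scaled to the same mean on each array. A floor was set at 78.1, the median of all values that are not array controls, and lower values were set to it. Log2 ratios are Hammer toe over wild type throughout. A gene was measured when at least 1 array lay above the floor, and where the other lay at or under it the ratio is a bound, written "at least". Spiked controls differed between the arrays with an SD of 0.06 on the log2 scale (18 probe sets), and the SD between sets that read 1 gene was 0.21 (5134 genes). These measures leave out differences between embryos. All 10 of the listed interdigit mesenchyme genes were measured. Aldh1a2 read 11474 in Hammer toe and 13129 in wild type, and Hoxd13 read 15779 in Hammer toe and 17291 in wild type. All 15 surface ectoderm markers, all 13 endothelial markers and 15 of 18 cartilage markers were measured as well. Being measured therefore does not tell interdigit tissue from the rest of the limb.

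The median ratio of the guidance genes lay close to wild type, with members on both sides, while the typical size of their ratios was somewhat above that of all genes. Of the 69 members 57 were measured, 52 of them above the floor on both arrays, and 32 were higher and 25 lower in Hammer toe. Their median log2 ratio was 0.02, against 0.01 over all 11621 measured genes, and the median size of the ratio without its sign was 0.16, against 0.12 over all. A single member, Sema3e, reached 1.5-fold higher (1.75% of 57), where 2.17% of all measured genes did. No member was 1.5-fold lower, where 1.39% of all genes were, and none reached 2-fold in either direction, where 0.37% did. At a smaller step, a log2 ratio of 0.32 in size, 8 members were higher and 3 lower, 14.0% and 5.26% of those measured, against 8.47% and 6.33% of all genes. In either direction 11 members, or 19.3%, passed that step, against 14.8% of all genes. The members above it were Sema3e, Sema3f, Sema4f, Ntn1, Ntn3, Ntn4, Plxnc1 and Epha1, and those below it Epha4, Sema6a and Robo2.

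**Figure D1:**
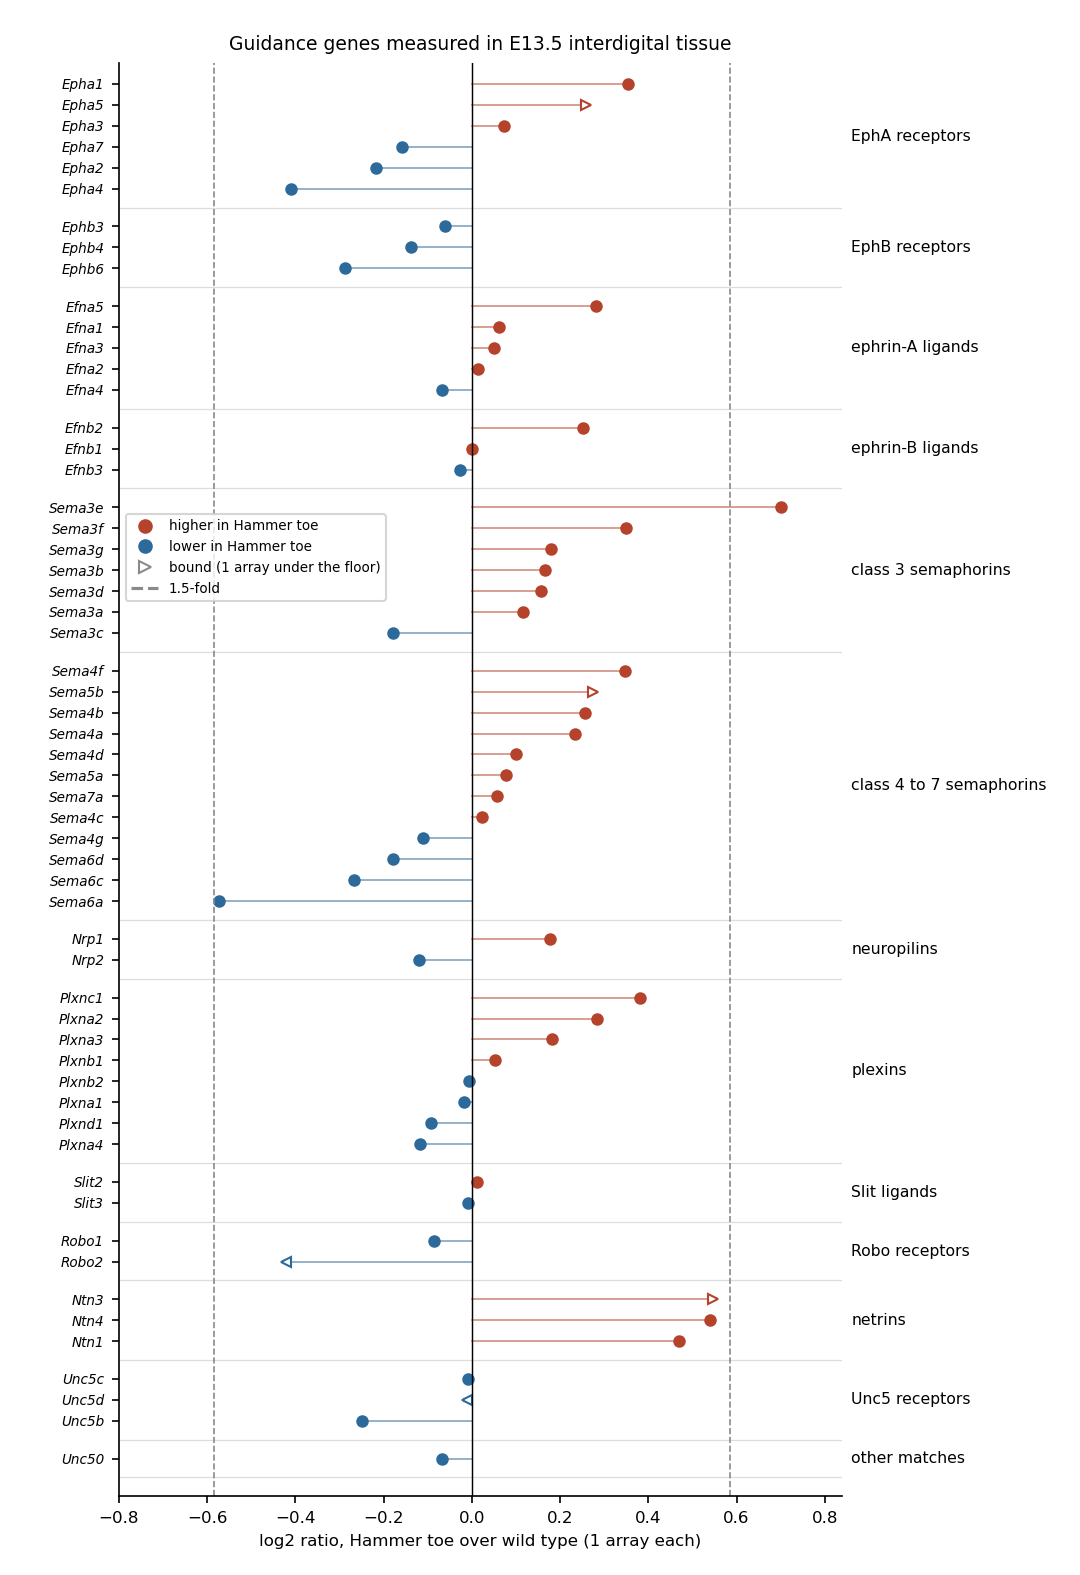
Log2 ratio, Hammer toe over wild type, of each of the 57 measured members, grouped by family, from 1 array per genotype. Filled circles are genes above the floor on both arrays, open triangles are bounds, and dashed lines mark 1.5-fold; Sema3e at 0.70 is the single point outside the lines, and the 3 measured netrins sit together between 0.47 and 0.55.

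How far a ratio strays depends on how bright the probe set is. Over all measured genes, 95% lay within 1.60-fold where the brighter array read up to 200, within 1.45-fold between 200 and 1000, and within 1.24-fold above 1000. Of the 57 members, 4 lay outside the range for their intensity (7.02%), against 5.01% of all genes, with bounds counted at their bound. They were the ligand genes Sema3e and Ntn4 above the range, and the ligand gene Sema6a and the receptor gene Epha4 below it. Ntn4 stood at the edge, with a log2 ratio of 0.54 where the range ended at 0.53.

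**Figure D2:**
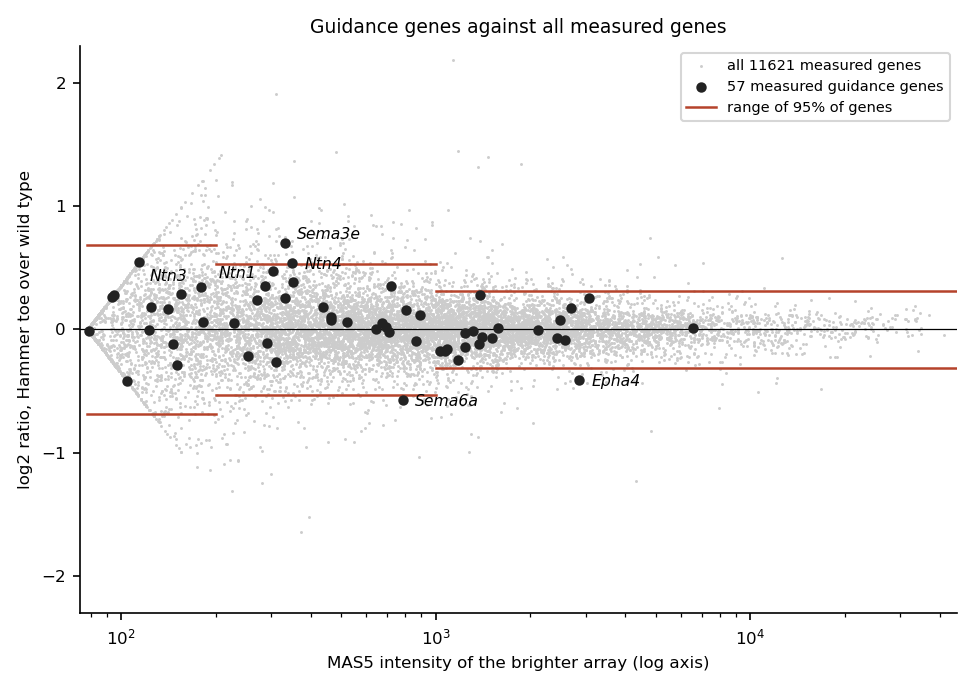
Log2 ratio, Hammer toe over wild type, against the MAS5 intensity of the brighter array (log axis) for all 11621 measured genes in grey and the 57 measured members in black. Red lines bound 95% of genes in each of 3 intensity ranges; Sema3e, Ntn4, Sema6a and Epha4 lie outside them and Ntn1 inside, and Ntn3 is drawn at its bound.

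Among the secreted class 3 semaphorins, Sema3e was higher in Hammer toe and the others differed little or had probe sets on both sides. All 7 members were measured, 6 higher and 1 lower on the set used, with a median log2 ratio of 0.17, and the signs of Sema3a, Sema3d and Sema3f differed between their probe sets. Sema3e encodes the ligand that binds Plxnd1 directly and is known for keeping vessels out of tissue. It read 331 on the Hammer toe array and 203 on the wild-type array, 1.62-fold higher. A second probe set read 155 in Hammer toe and 95.03 in wild type. Its log2 ratio of 0.71 stood beside 0.70 for the first, so both sets above the floor gave nearly the same difference. The other 2 probe sets read 51.5 and 52.4 in Hammer toe and 22.8 and 30.3 in wild type. They lay under the floor on both arrays, so no direction was read from them.

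Sema3f, a ligand that acts through Nrp2, read 722 in Hammer toe and 567 in wild type on an _x_at probe set, a design which can bind related transcripts. Its log2 ratio of 0.35 was not shared by its other probe sets, at -0.15 and -0.13, so no direction can be given for the gene. Sema3a, the collapse factor that acts through Nrp1, stood at 0.12 on the set used and at -0.12 and 0.49 on the others. Sema3d, which also binds neuropilins, stood at 0.16 and -0.16. Sema3b and Sema3g, further secreted semaphorins, were at 0.17 and 0.18. Sema3c, known from cardiac and vascular development, was the member on the lower side, at -0.18 and -0.21 on its 2 sets. Within the class, Sema3e lay outside the range of 95% of genes and the other 6 lay inside it.

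Membrane-bound semaphorins of classes 4 to 7 were spread on both sides of wild type. Of 13 members 12 were measured, 8 higher and 4 lower, with a median log2 ratio of 0.07. Sema6a encodes a transmembrane ligand of Plxna2 and Plxna4. It read 528 in Hammer toe and 785 in wild type, 1.49-fold lower. The second probe set, at 158 in Hammer toe and 205 in wild type, was lower too, with a log2 ratio of -0.37. The third, of the _a_at type, went the opposite way, with 167 in Hammer toe and 118 in wild type. Averaged over its sets the ratio was -0.15. Both the side and the size of the difference in Sema6a depended on the probe set read, so no direction can be given for the gene.

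Of the related class 6 genes, Sema6c and Sema6d were lower on the sets above the floor on both arrays. Sema6c was at -0.27 and -0.53 on its 2 such sets, and Sema6d at -0.18 and -0.11. A further set of Sema6d was under the floor in wild type, with a log2 ratio of at least 0.47. Sema6b was under the floor on both arrays. In the other direction Sema4f read 179 in Hammer toe and 141 in wild type, 1.27-fold higher, on an _x_at set. Sema4a and Sema4b were at 0.23 and 0.26, and the second set of Sema4a at 0.26. Sema4d, the ligand of Plxnb1, and Sema4c, a ligand of Plxnb2, stood at 0.10 and 0.02, and Sema4g at -0.11. Sema5a, which carries thrombospondin repeats, was at 0.08, with other sets at 0.12 and 0.30, and Sema5b at 0.28 or more, a bound. Sema7a, a lipid-anchored ligand of Plxnc1, was at 0.06.

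None of the measured semaphorin receptors reached 1.5-fold on the set used. Nrp1, the co-receptor for Sema3a that also binds Vegf, read 2688 in Hammer toe and 2379 in wild type. Its 4 probe sets lay between 0.18 and 0.32, all higher. Nrp2 read 1261 in Hammer toe and 1369 in wild type, and its 3 sets above the floor lay between -0.35 and -0.12, all lower. The 2 neuropilins thus stood on opposite sides of wild type on every probe set above the floor, each by less than 1.5-fold.

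Of 9 plexins 8 were measured, 4 higher and 4 lower, with a median of 0.02; Plxnb2, at -0.01, changed sign under quantile normalization. Plxnc1, the receptor of Sema7a, was 1.30-fold higher, at 352 in Hammer toe and 270 in wild type. A second set read 135 in Hammer toe and 78.6 in wild type, just above the floor, with a log2 ratio of 0.78. Plxna2, a receptor of class 6 semaphorins, was at 0.28, from 155 in Hammer toe and 128 in wild type. Its other sets were at 0.15 and 0.80, the last from 164 in Hammer toe and 93.7 in wild type. For both genes every set above the floor was higher, while the size ranged widely between sets of low intensity.

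Plxnd1, the receptor of Sema3e, read 811 in Hammer toe and 865 in wild type, a log2 ratio of -0.09. It therefore lay near wild type where its ligand gene was higher. Plxna3 stood at 0.18 with a second set at -0.08, Plxna4 at -0.12 with a second set at -0.19, and Plxnb1 at 0.05 with a second set at -0.19. Plxna1, a partner of the neuropilins, and Plxnb2, the receptor of Sema4c, were at -0.02 and -0.01, and Plxnb3 was under the floor on both arrays.

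Netrins were the family whose measured members all stood above wild type and all passed the smaller step of 0.32. Of all measured genes, 8.47% passed that step on the higher side. Of 4 genes 3 were measured, with a median log2 ratio of 0.54. Ntn1, the founding secreted attractant and repellent, read 303 in Hammer toe and 219 in wild type, 1.39-fold higher. Ntn4, a netrin of basement membranes that binds laminins, read 348 in Hammer toe and 239 in wild type, 1.45-fold higher. Its second set read 87.9 in Hammer toe and 50.5 in wild type, at least 0.17 higher on the log2 scale. Averaged over its sets, the bound included, the log2 ratio of Ntn4 was 0.36. Ntn3, which resembles Ntn1, read 114 in Hammer toe and 67.8 in wild type, at least 1.46-fold higher. Ntn5 was under the floor on both arrays, at 16.8 in Hammer toe and 16.5 in wild type. A second set of Ntn1 was also under the floor, at 61.6 in Hammer toe and 9.81 in wild type. The family is small and its intensities are modest. Ntn4 lay at the edge of the range of 95% of genes and Ntn1 inside it, while Ntn3, being a bound, cannot be placed. With no floor the log2 ratio of Ntn3 was 0.75, but 25.6% of all genes passed 1.5-fold in that setting. The range was set on floored values and does not apply to it.

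The Unc5 netrin receptors lay at or below wild type. Unc5b, an Unc5 receptor known from vessels, read 987 in Hammer toe and 1172 in wild type, and its 2 sets were at -0.25 and -0.50. Unc5c, at 1305 in Hammer toe and 1314 in wild type, was at -0.01 with a second set at -0.16. Unc5d lay at the floor, at 58.6 in Hammer toe and 78.7 in wild type, and Unc5a was under it on both arrays. All 3 measured Unc5 receptors were thus on the lower side, Unc5c by 0.01 and Unc5d by a bound of 0.01 on the log2 scale. Dcc, the attractive netrin receptor, was under the floor on both arrays, at 65.3 in Hammer toe and 57.4 in wild type. Neo1 (neogenin) stood at 0.16 on the set used, of the _s_at type, and its other measured sets were at -0.33, 0.72, 0.56 and a bound of -0.21, so no direction can be given for it. Of the 3 symbol matches outside the guidance families, Unc50 was at -0.07, and Unc5cl and Plxna4os1 were under the floor on both arrays.

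**Figure D3:**
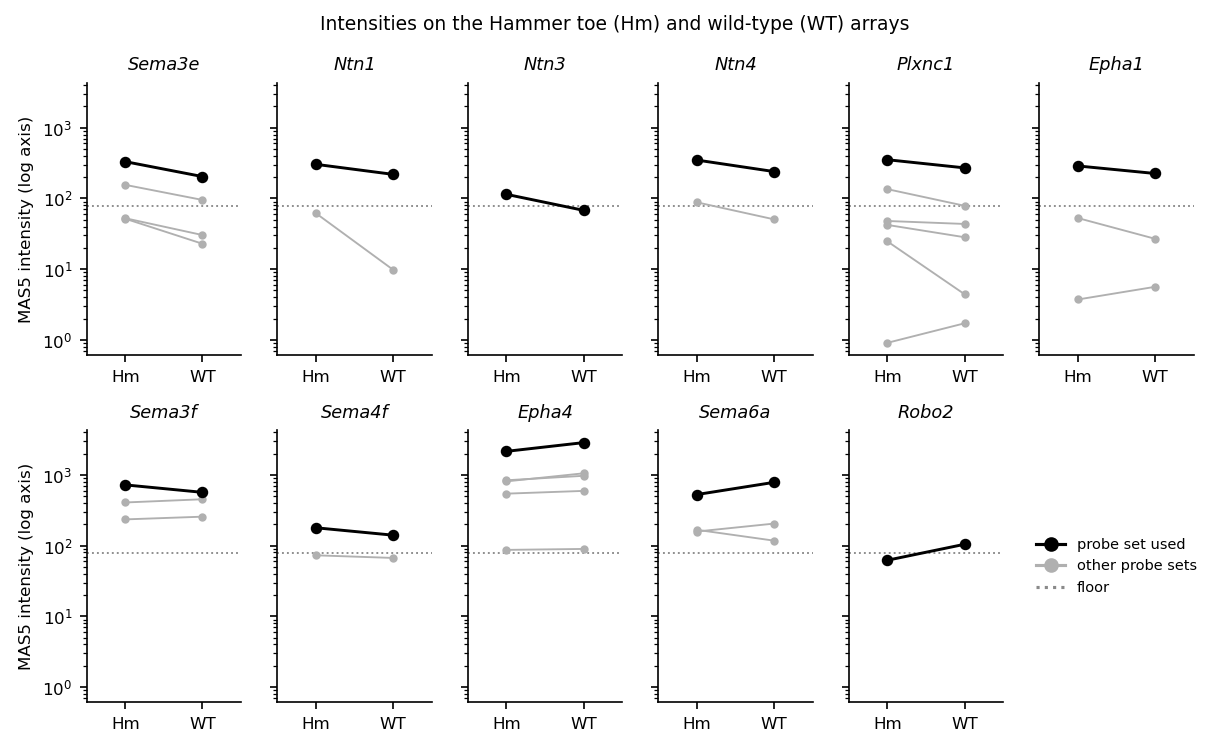
MAS5 intensities (log axis) on the Hammer toe (Hm) and wild-type (WT) arrays for the 11 members that passed a log2 ratio of 0.32 in size, each line being 1 probe set. Black lines are the set used for the gene, grey lines its other sets, and the dotted line is the floor of 78.1; both Sema3e sets above the floor and the Ntn4 sets slope the same way, while the grey sets of Sema3f slope against the black one.

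Sequence upstream of the start site is shown for 4 members picked after their values were seen: Sema3e, Ntn3 and Ntn4, which stood higher, and Epha4, whose 5 probe sets all stood lower. It comes from the RefSeq promoter table (build GRCm38.p6). Each run gives the 250 bases before the annotated start, 5′ to 3′ on the gene's own strand, with GC boxes (GGGCGG on either strand, overlapping matches included) in capitals. Sema3e lies on the plus strand (chr5:14025026-14025275), Ntn3 on the minus strand (chr17:24209388-24209637), Ntn4 on the plus strand (chr10:93640799-93641048) and Epha4 on the minus strand (chr1:77515089-77515338).
Sema3e: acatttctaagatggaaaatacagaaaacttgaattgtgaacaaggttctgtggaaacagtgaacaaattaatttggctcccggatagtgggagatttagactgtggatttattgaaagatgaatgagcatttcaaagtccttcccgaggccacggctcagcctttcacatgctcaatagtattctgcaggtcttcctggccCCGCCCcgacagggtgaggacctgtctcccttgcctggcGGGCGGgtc
Ntn3: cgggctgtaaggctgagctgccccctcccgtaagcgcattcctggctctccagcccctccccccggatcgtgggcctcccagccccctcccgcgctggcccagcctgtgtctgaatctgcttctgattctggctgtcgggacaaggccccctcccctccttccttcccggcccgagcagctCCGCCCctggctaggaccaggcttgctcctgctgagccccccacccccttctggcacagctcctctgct
Ntn4: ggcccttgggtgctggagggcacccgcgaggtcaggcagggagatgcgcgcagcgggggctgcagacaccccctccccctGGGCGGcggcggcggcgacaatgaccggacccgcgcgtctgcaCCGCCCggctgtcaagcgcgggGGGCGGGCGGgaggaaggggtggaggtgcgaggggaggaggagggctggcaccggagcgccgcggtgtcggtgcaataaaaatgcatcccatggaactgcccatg
Epha4: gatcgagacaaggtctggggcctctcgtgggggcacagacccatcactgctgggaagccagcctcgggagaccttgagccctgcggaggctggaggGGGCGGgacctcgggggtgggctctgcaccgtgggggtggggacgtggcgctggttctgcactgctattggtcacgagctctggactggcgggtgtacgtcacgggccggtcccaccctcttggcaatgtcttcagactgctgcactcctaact

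The windows differ in base composition. That of Ntn4 is 73.2% G or C with 26 CpG dinucleotides and 4 GC boxes, 2 of which overlap, and that of Sema3e is 48.0% G or C with 7 CpG and 2 GC boxes. Ntn3 holds 11 CpG and Epha4 14, with 1 GC box each. A GC box is in 32.7% of the 32851 promoter windows of the same length in the table, whose median is 52.4% G or C and 6 CpG. The TATA box TATAAA, in 12.4% of all windows, is in none of the 4, and the E-box CANNTG, in 66.2%, is in that of Sema3e alone. The Gli motif GACCACCCA, which hedgehog effectors bind, is in 0.225% of all windows and in none of the 4. A match is a description of letters and not of binding, and 60 members had at least 1 row in the table.

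Among the measured Eph receptors, Epha4 was the one outside the range of 95% of genes. It encodes a receptor that binds ephrins of both classes and is known in the limb for steering motor axons to its dorsal side. It read 2155 in Hammer toe and 2863 in wild type, 1.33-fold lower, where 95% of genes of that intensity lay within 1.24-fold. Its other sets read 810, 840, 543 and 87.0 in Hammer toe and 1053, 972, 594 and 89.8 in wild type. All 5 were lower in Hammer toe, but the size ranged widely. The log2 ratios were -0.41 on the set used and -0.38, -0.21, -0.13 and -0.05 on the others, and -0.23 averaged over the sets.

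The 9 EphA receptors, 6 of them measured, were otherwise mixed, with 3 higher, 3 lower and a median of -0.04. Epha1, a receptor of epithelia, read 287 in Hammer toe and 225 in wild type, 1.28-fold higher. Epha7, known from limb mesenchyme, was at -0.16 on the set used and at 0.09 and 0.43 on the others, so its sets disagreed in sign. Epha3 was at 0.07 with a second set at -0.02, and Epha2 at -0.22. Epha5 read 93.5 in Hammer toe and 62.8 in wild type, a log2 ratio of at least 0.26. Epha6, Epha8 and Epha10 were under the floor on both arrays.

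All 3 measured EphB receptors were on the lower side, by small amounts. Ephb6, which lacks kinase activity, was the furthest, at 123 in Hammer toe and 151 in wild type, a log2 ratio of -0.29. Ephb4, the receptor of veins, was at -0.14, and Ephb3 at -0.06. Ephb1 was under the floor on both arrays, and Ephb2 was not among the 69 members, so the family was not fully covered. Each gene rested on a single probe set, and none left the range of 95% of genes.

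Ephrin ligand genes lay near wild type on the set used. The 5 lipid-anchored ephrin-A genes were all measured, 4 higher and 1 lower, with a median of 0.05. Efna5 was the furthest, at 1384 in Hammer toe and 1139 in wild type, a log2 ratio of 0.28, with 0.39 on its second set. Efna1 stood at 0.06 with a second set at -0.26, and Efna2 at 0.01 with a second set at -0.14. Efna3 stood at 0.05 with a second set at least 0.36 higher, from 100.2 in Hammer toe and 73.9 in wild type, under the floor there. Efna4 stood at -0.07. Efna5, a ligand of Epha4 among other receptors, was therefore higher by 1.22-fold where Epha4 was lower, and it stayed inside the range of its intensity.

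Of the 3 transmembrane ephrin-B genes, Efnb2, the ligand that marks arteries, read 3078 in Hammer toe and 2585 in wild type, 1.19-fold higher. Its other 3 sets lay between 0.01 and 0.04, so the difference rested on 1 set. Efnb1, a gene whose loss disturbs digits and skull in the mouse, read 646 on both arrays, and all 3 of its sets lay within 0.03 of no difference. Efnb3 stood at -0.03. The ephrin-B family as a whole had a median of 0.00.

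Slit genes did not differ visibly between the arrays, and of their receptors Robo2 gave a bound. Slit2, a secreted repellent, read 6556 in Hammer toe and 6500 in wild type, with a log2 ratio of 0.01 and other sets at -0.11 and 0.19. Slit3 read 122 on both arrays, at -0.01, and Slit1 was under the floor on both. Robo1, their receptor, read 2420 in Hammer toe and 2567 in wild type, a log2 ratio of -0.09. Robo2 read 62.2 in Hammer toe and 104 in wild type, at least 1.34-fold lower, and Robo3 was under the floor on both arrays. The bound for Robo2 rests on 1 dim probe set.

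Agreement between probe sets gives a view of these small differences from within the arrays. Of the 29 members with at least 2 sets above the floor on both arrays, all sets lay on the same side in 17, or 58.6%, against 43.2% of the 5134 such genes on the array. The 2 groups were not matched for number of sets per gene, intensity or size of ratio, on which such agreement depends. Better agreement among the members cannot be read from these shares. Of those 17, 9 were higher and 8 lower. The higher ones were Sema3e, Sema4a, Sema5a, Nrp1, Plxna2, Plxnc1, Efna5, Efnb1 and Efnb2, and the lower ones Sema3c, Sema6c, Sema6d, Nrp2, Plxna4, Epha4, Unc5b and Unc5c. Efnb1 lay next to no difference, and median centring moved its ratio to -0.01. Sets of a gene share the same 2 RNA samples, so they repeat the reading and not the embryos.

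**Figure D4:**
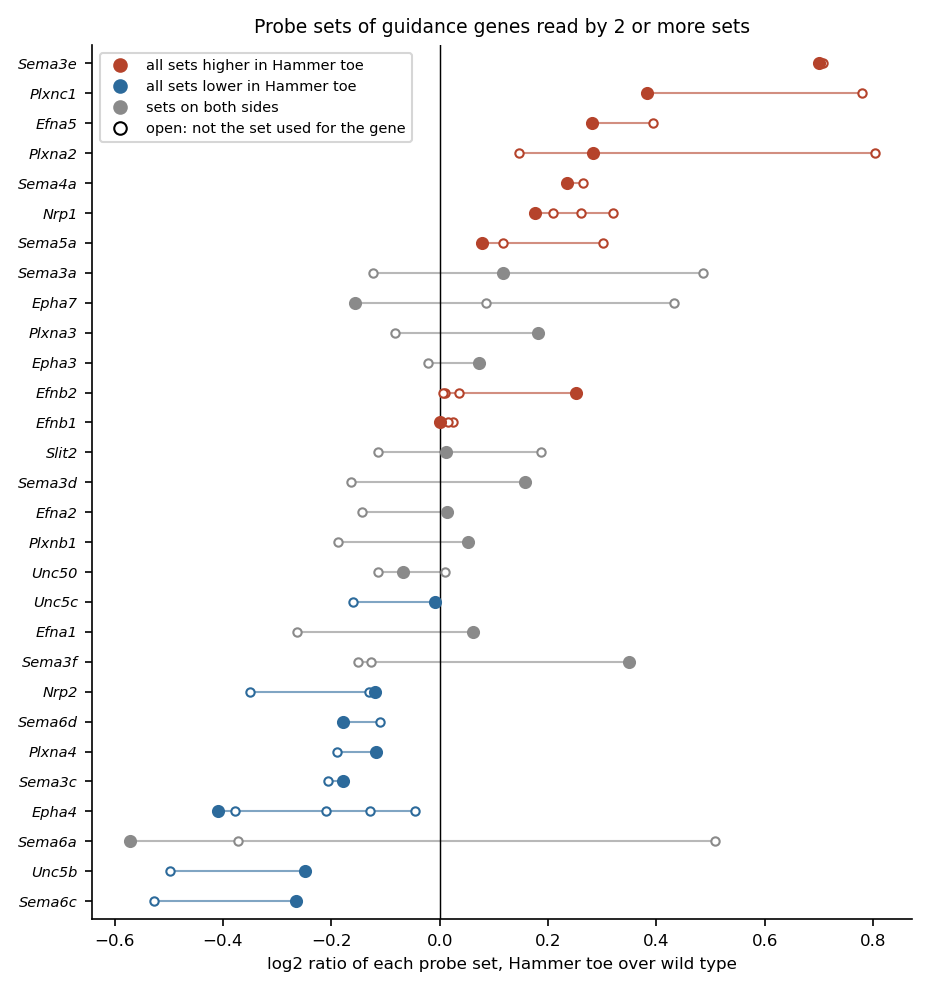
Log2 ratio, Hammer toe over wild type, of each probe set whose 2 readings passed the floor, for the 29 members read by at least 2 such sets. Filled points are the set used for the gene; the 2 sets of Sema3e coincide near 0.70, the 5 of Epha4 all lie left of 0, and those of Sema6a lie on both sides.

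A list of 61 further genes that work with these families (co-receptors, other guidance cues and intracellular effectors) was compared in the same way. Of 57 with a probe set, 52 were measured, 29 higher and 23 lower, with a median log2 ratio of 0.05. At 1.5-fold or more 2 were higher and none lower, where 3.56% of all genes passed in either direction. Rgma, a lipid-anchored ligand of neogenin, read 272 in Hammer toe and 158 in wild type, 1.72-fold higher on its single measured set. Cxcl12, a chemokine that directs migrating cells, read 1386 in Hammer toe and 845 in wild type, 1.64-fold higher, and its second set was at 0.72 beside 0.71. Draxin, a secreted antagonist that binds netrin receptors, was 1.44-fold lower, at 160 in Hammer toe and 232 in wild type, and its second set gave a bound of -0.06. The cytoskeletal effectors Rac1, Cdc42, Rhoa and Cfl1 lay between -0.04 and 0.07 on the sets used, but other intracellular effectors lay further out. Chn2 stood at -0.44 and Vav3 at -0.40, though each had another set on the higher side, at 0.03 and 0.36. Srgap1, Srgap2 and Srgap3 lay between -0.37 and -0.21 on the sets used, with a further set of Srgap2 at 0.05. Rnd3 stood at 0.35 on each of its sets. Over the whole list, 5 genes were higher and 5 lower at the smaller step.

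Other cell types carry many of these genes, and their markers differed between the arrays. Surface ectoderm markers were higher in Hammer toe in 12 of 15, with summed intensities of 18409 in Hammer toe and 14492 in wild type and a median log2 ratio of 0.36. Skeletal muscle markers were higher in 7 of 9 measured, with sums of 2222 in Hammer toe and 1540 in wild type and a median of 0.46. Macrophage markers were higher in 10 of 11 measured, with sums of 3968 in Hammer toe and 3071 in wild type and a median of 0.33. Sums here run over every listed gene with a probe set, measured or not. Cartilage markers were lower in 14 of 15 measured, with sums of 11273 in Hammer toe and 17201 in wild type and a median of -0.56. Interdigit mesenchyme markers were lower in 9 of 10, with sums of 70274 in Hammer toe and 78191 in wild type and a median of -0.20. Erythroid markers were lower in all 7 measured, with sums of 49768 in Hammer toe and 58064 in wild type and a median of -0.50.

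Nerve and vessel markers, the tissues in which guidance genes are best known, had medians near 0. Schwann and nerve markers were higher in 6 of 8 measured and lower in 1, and Sox10 lay at the floor, at 78.1 in Hammer toe and 27.3 in wild type. The list had sums of 2349 in Hammer toe and 2166 in wild type and a median of 0.09, Mbp being the furthest at 0.67. Endothelial markers were higher in 7 of 13, with sums of 7214 in Hammer toe and 6672 in wild type and a median of 0.02, Esam being the furthest at 0.55. No marker with a probe set read 0 on either array. The part of these cell types in the values of Sema3e, the netrins, Epha1, Epha4 or Sema6a was not tested.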

How the data were processed

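Each of the 2 samples, 1 Hammer toe and 1 wild type, gave 1 column of intensity per probe set. The authors made these deposited intensity values with the MAS5 method in Affymetrix Expression Console, as given per the submitters' processing notes, and versions are not given in the sources used here. Both columns have a mean of 500.003 with 2% trimmed at each end, so a change of most transcripts in one direction cannot be seen.

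Of 45101 probe sets, 64 were controls, 34945 had 1 gene, 932 several and 9160 none. Symbols were updated by gene ID through the RefSeq table of GRCm38.p6, and 204 probe sets kept the platform symbol for want of a match. No gene coordinates were taken from it. Each gene is represented by the probe set whose mean of the 2 readings was highest. Analysis used Python 3.11.15, pandas 2.3.3 and statsmodels 0.14.6. It was tested by shuffling the observed ratios among probe sets of like intensity and planting changes in them. The planted changes were 2-fold or more, in genes well above the floor, so smaller or dimmer differences were not covered. Each was planted alike in all probe sets of a gene, so changes seen by only some sets were not covered either. There are no replicates, hence no test; a gene counted as different at 1.5-fold or more.

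Every member is named; both intensities are given for members at 1.5-fold or more and for the furthest member of each family, and further ones were added after their values were seen. The members and lists were chosen with earlier results of these data known. Alternatives covered scaling, floor, pseudocount, probe set choice and fold size.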

Additional observations from a re-analysis of the deposited data

How the results depend on the processing

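The main counts were 1 member higher (Sema3e), 0 lower and 2 partner genes at 1.5-fold or more. Median centring, quantile normalization, lowess correction (span 0.3), averaging probe sets, leaving out probe sets of the _x_at, _s_at and _a_at types, and leaving out Unc50, Unc5cl and Plxna4os1 (added after seeing the data, for the members only) kept these counts. The floor and the size of change moved them. With no floor, 3 members were higher and 8 lower, against 25.6% of all genes, and a floor at the 25th percentile gave 2 higher and 7 lower, against 14.4%; all but Sema3e among them had at least 1 array under the main floor. With the floor at the 75th percentile, 30 members remained, 0 were higher and 1 partner gene passed, against 0.65% of all genes. With a pseudocount 0 members were higher and 1 partner gene passed, against 1.72% of all genes. At 2-fold 0 members and 0 partner genes passed, against 0.37% of all genes. At the smaller step (a log2 ratio of 0.32) 8 members were higher and 3 lower. Of the 52 measured partner genes 10 passed that step, where 14.8% of all genes did. The pseudocount gave Sema3e 0.54 and Rgma 0.57 on the log2 scale, under the step of 0.58. The median of the members ranged from -0.01 (floor at the 75th percentile) to 0.04 (without the 3 symbol matches). Of 57 members, 48 kept their sign under every alternative that gave a value and 9 did not: Efna1, Efna2, Efnb1, Plxnb1, Plxnb2, Epha7, Sema3d, Sema3f and Sema6d. For a gene with 1 probe set well above the floor, most alternatives change the ratio little, so a kept sign says little there. A kept sign also does not mean that the probe sets agree. Sema3a, Sema6a, Slit2, Epha3, Plxna3 and Unc50 are among the 48 and had sets on both sides. Sema3f stood at -0.13 without the named probe set types, and Sema6a at -0.15 over the mean of its sets. No paired analysis was possible because each genotype has 1 array. The cause of these shifts was not tested beyond what the settings change.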

Other observations

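Genes related by name or structure to the guidance families, chosen after the members' values were seen, lay near wild type on the sets used. Of 11 such genes 7 were measured, 4 higher and 3 lower in Hammer toe. None reached a log2 ratio of 0.32 in size on the set used, where 14.8% of all genes did, and the list is short. Robo4, the Robo receptor of vessels, read 213 in Hammer toe and 254 in wild type, a log2 ratio of -0.26. The membrane proteins Slitrk5 and Slitrk6 stood at 0.12 each, and the netrin-G gene Ntng1 at 0.00, from 187 on both arrays, with a second set at 0.20. Plxdc2 stood at -0.16 on the set used and at 0.26 and 0.70 on its other measured sets, so no direction can be given for it.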
